A study of Mus musculus with 6 samples.

Results

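The genes described here mark the mesothelium, the sheet of cells that covers abdominal organs, or pattern the mesenchyme around the stomach, spleen and pancreas. They were chosen by name: of 10 named genes, 9 had a row in a table of 14681 genes from mouse dorsal pancreas at embryonic day 18.5. The mesothelial genes are Wt1, Upk3b, Msln, Lrrn4 and Krt14, and the mesenchymal factors are Barx1, Nkx2-5, Nr2f1 and Nr2f2. Tcf21, a basic helix-loop-helix factor of visceral mesenchyme, had no row and is not analysed here. The study compared the dorsal pancreas of 3 control and 3 knockout C57BL/6 embryos by RNA sequencing, and the extraction protocol names the knockout Dpy30∆P. Dpy30 is a core subunit of the Trithorax group complexes that methylate lysine 4 of histone H3. The labels do not say which promoter drives the deletion, which cells carry it or which alleles the controls carry. The deposited table is named after Pdx1 and not after Dpy30, and whether that name means the driver of the deletion is not stated. The single comparison asks how the tissue differs with the knockout, and here it is read for cells that surround the pancreatic epithelium.

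Mesothelium arises from the lining of the body cavity and can give rise to fibroblasts and smooth muscle cells of the organ below it. The pancreatic mesenchyme develops beside that of the stomach and spleen, and a set of transcription factors gives each region its identity. Signals from this mesenchyme drive growth and branching of the pancreatic epithelium. Wt1 is a zinc finger transcription factor of mesothelium and of kidney podocytes. Upk3b encodes a uroplakin of the cell surface, Msln the surface glycoprotein mesothelin, Lrrn4 a membrane protein with leucine-rich repeats, and Krt14 a keratin best known from the basal layer of squamous epithelium. Barx1 is the homeobox factor of stomach mesenchyme. Nkx2-5 is a homeobox factor of the heart and of the mesenchyme that forms spleen and pylorus. Nr2f1 and Nr2f2 encode the related orphan nuclear receptors COUP-TFI and COUP-TFII, and Nr2f2 also marks venous and lymphatic endothelium.

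Methylation of histone H3 lysine 4 is strongest at active promoters, above all at those rich in CpG dinucleotides, so the sequence before the start of 3 members is shown to let a reader see how far they differ in this feature. The sequences come from the RefSeq promoter table of build GRCm38.p6 and run from 250 to 51 bases before the start site, 5′ to 3′ on the gene's strand, with each CpG in capitals. The table held 8 of the 10 named genes. The Upk3b and Lrrn4 windows are those of mesothelial genes, and the Barx1 window is the one with the most CpGs among the members.
Upk3b, chr5:136038246-136038445, plus strand: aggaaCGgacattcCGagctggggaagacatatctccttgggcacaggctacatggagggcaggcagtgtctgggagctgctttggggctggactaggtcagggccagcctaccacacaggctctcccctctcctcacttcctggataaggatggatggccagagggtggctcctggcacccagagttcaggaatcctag
Lrrn4, chr2:132880913-132881112, minus strand: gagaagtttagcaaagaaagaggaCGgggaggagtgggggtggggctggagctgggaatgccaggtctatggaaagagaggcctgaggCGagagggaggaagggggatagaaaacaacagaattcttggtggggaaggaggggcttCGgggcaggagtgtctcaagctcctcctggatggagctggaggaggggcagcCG
Barx1, chr13:48662786-48662985, plus strand: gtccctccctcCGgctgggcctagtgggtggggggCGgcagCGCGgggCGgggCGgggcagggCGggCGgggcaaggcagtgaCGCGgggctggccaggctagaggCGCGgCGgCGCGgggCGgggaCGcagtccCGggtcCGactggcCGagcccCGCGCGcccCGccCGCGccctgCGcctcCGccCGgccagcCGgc

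The windows of Upk3b and Lrrn4 held 2 and 4 CpGs, against a median of 4 over all 32851 promoter windows of the same 200 bases. The Barx1 window held 30 CpGs, above 98.1% of them counting ties by their mean rank. Nr2f1 has 2 starts in the table, with 20 and 1 CpGs, which lie 884 and 76 bases from the nearest coding transcript start in GENCODE M21, so neither window is strictly the promoter of a coding transcript. The Nr2f2, Nkx2-5 and Tcf21 windows held 1, 5 and 4. The start listed for Krt14 lies 1518 bases from that of its coding transcript, so its window with 5 CpGs is not the promoter of that transcript. The motif TATAAA, searched on both strands, was in none of the 9 member windows and in 9.14% of all windows. The windows stop 51 bases before the start, so a TATA box closer to it would not be seen. The search therefore does not show whether these promoters have one. The GC box GGGCGG, searched likewise, was in the Barx1 window and in 1 of the Nr2f1 windows, against 24.6% of all windows. CCAAT was in the Nr2f2 window and in 28.4% of all. These matches describe letters in a window, and no measurement of histone methylation at these promoters was used here.

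The mesothelial genes were well represented in this tissue. The authors' deposited table gives 1 mean of normalized counts over all libraries for each gene, so no value per sample and no spread between samples can be shown. Upk3b (Entrez gene 100647; chromosome 5, 136038496 to 136046487 in GRCm38) reached 1096.6 mean normalized counts in the authors' deposited table, rank 359 of 14681 genes. Lrrn4 (Entrez gene 320974; chromosome 2, 132868305 to 132880891) had 749.3 and rank 622, Wt1 (Entrez gene 22431; chromosome 2, 105126529 to 105173616) had 408.5 and rank 1408, and Msln (Entrez gene 56047; chromosome 17, 25748613 to 25754378) had 401.0 and rank 1443. Msln, the lowest of these 4, was at or above 90.2% of the genes listed. Together they made up 0.0725% of all mean normalized counts. Krt14 (Entrez gene 16664; chromosome 11, 100203162 to 100207548) stood apart from the other mesothelial genes, with a mean of only 46.1 and rank 8471.

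The mesenchymal factors covered a wider range. Nr2f2 (Entrez gene 11819; chromosome 7, 70351944 to 70366735) reached 410.9 mean normalized counts in the authors' deposited table, rank 1395. Barx1 (Entrez gene 12022; chromosome 13, 48662998 to 48666507) had 139.7 and rank 4570. Nr2f1 (Entrez gene 13865; chromosome 13, 78188973 to 78199757) had 10.99 and Nkx2-5 (Entrez gene 18091; chromosome 17, 26838664 to 26845009) had 6.67, at ranks 11911 and 12732. The lowest mean count of any listed gene was 1.06, so these last genes sat near the low end of the table.

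To compare genes of different length, the mean normalized count was divided by the length of the longest protein-coding GENCODE M21 transcript of each gene. On this scale of mean count per kb, Upk3b was highest among the members at 310.6, followed by Lrrn4 at 201.7, Msln at 185.2, Wt1 at 132.2, Barx1 at 99.8 and Nr2f2 at 97.3. Krt14 was at 27.2, Nkx2-5 at 4.37 and Nr2f1 at 3.43. Barx1, which is short, and Nr2f2, which is long, were nearly level per kb although their mean counts differed by far more. Nr2f2 stood far above its paralog Nr2f1. Without values per library, neighbours in this order could not be tested against their spread.

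**Figure D1:**
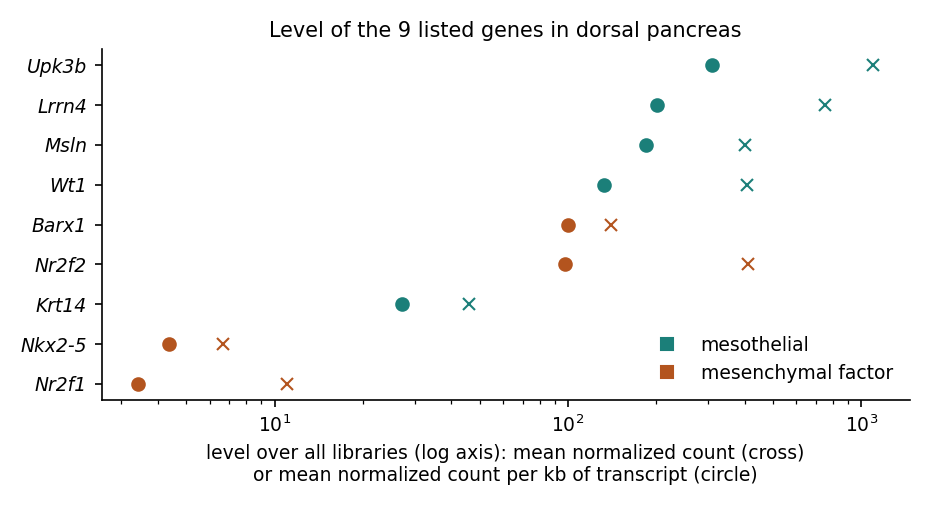
Levels of the 9 members over all libraries on a log x axis, as mean normalized counts (crosses) and as mean normalized counts per kb of transcript (circles), coloured by role. Upk3b, at 310.6 per kb, leads the mesothelial genes, and Nkx2-5 and Nr2f1, at 4.37 and 3.43 per kb, lie lowest.

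No member was called different between knockout and control. The authors' deposited DESeq2 table gives an adjusted p for 8 members, of which 0 were under 0.05, against 0.743% of all 12108 genes with an adjusted p (90 genes). At a nominal (unadjusted) p below 0.05 the count was 0 of 9, against 5.39% of all genes with a p. The signs in the table were mixed, with 4 members below 0 and 5 above, beside 6654 below and 8027 above over all genes. The median unshrunken log2 fold change of the 8 members with a determined size was -0.13, beside 0.08 over all genes with one. Among genes with a mean count of at least 20, the median was 0.016, with 5230 signs below 0 and 5486 above. Over the 6 members with a standard error (SE) of at most 1, the median was 0.10. The sign of the members' median thus depends on the imprecise Krt14 and Nr2f1. Since the tissue was sequenced in bulk, fewer cells of a type and less RNA per cell could not be told apart in any of these values.

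The table's log2 fold changes were shrunken towards 0, and 92.7% of them lay within 0.1 of it. Sizes are therefore also given unshrunken, with an SE and a 95% interval, reconstructed on the assumption of a Cauchy prior. Neither labels nor table state the numerator of the fold changes. Positive values are read here as higher in the knockout, by the usual convention, and all signs reverse if the control is the numerator. Dpy30 itself had a mean count of 29.4 and an unshrunken log2 fold change of 0.50 ± 1.66 (SE; adjusted p = 1.00 in the authors' DESeq2 test), too imprecise to check the direction or the labels.

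Among the mesothelial genes, those with many reads had unshrunken values from -0.26 (Wt1) to 0.45 (Upk3b), with wide intervals. For Upk3b the authors' deposited table gave a log2 fold change of 0.12 ± 0.22 (error as deposited, with an unadjusted p of 0.246 in their DESeq2 test). Unshrunken, Upk3b was at 0.45 ± 0.39 (SE), with a 95% interval from 0.81 to 2.30 as a ratio. Lrrn4 was the member nearest to no difference: its unshrunken log2 fold change was 0.00 ± 0.40 (SE; unadjusted p = 0.999), with an interval from 0.58 to 1.72 as a ratio. The interval allows a change of up to 1.72-fold either way, so Lrrn4 is not shown to be equal in both groups. Msln had an unshrunken value of 0.21 ± 0.56 (SE; unadjusted p = 0.714 in the authors' DESeq2 test) and Wt1 of -0.26 ± 0.51 (SE; unadjusted p = 0.608). As ratios, their intervals ran from 0.54 to 2.47 and from 0.42 to 1.66. The 4 intervals overlap widely, and each includes 0 on the log2 scale. Krt14, with far fewer reads, was at -0.62 ± 1.38 (SE; unadjusted p = 0.646 in the authors' DESeq2 test), and its interval ran from 0.10 to 4.25 as a ratio.

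Among the mesenchymal factors, Barx1 had the largest unshrunken value of either sign of the 8 members with a size. Its log2 fold change was -0.07 ± 0.23 (error as deposited) in the authors' deposited table and -0.76 ± 0.68 (SE) unshrunken. The unadjusted p was 0.266 in their DESeq2 test. The interval of Barx1 ran from 0.23 to 1.496 as a ratio. With a prior scale 1.5 times larger its value was -0.14 ± 0.30 (SE; 0.61 to 1.37 as a ratio) and Upk3b, at 0.21, was the largest; the z of Barx1 was then 0.4496, against 1.11 from the deposited p. Nr2f2 was at 0.24 ± 0.44 (SE; unadjusted p = 0.585 in the authors' DESeq2 test), with an interval from 0.65 to 2.16 as a ratio. Its paralog Nr2f1 was at -0.56 ± 2.95 (SE; unadjusted p = 0.828), which carries no information on direction. Nkx2-5 had no adjusted p, the smallest unadjusted p of the members (0.124 in the authors' DESeq2 test) and a deposited log2 fold change of 0.01 ± 0.22. The reconstruction missed the deposited p of Nkx2-5, so no size is given for it. Its deposited value was shared, to within 0.0005 in size and in error, by 1059 genes, itself included, with a median mean count of 4.33, 745 of them with a positive sign.

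**Figure D2:**
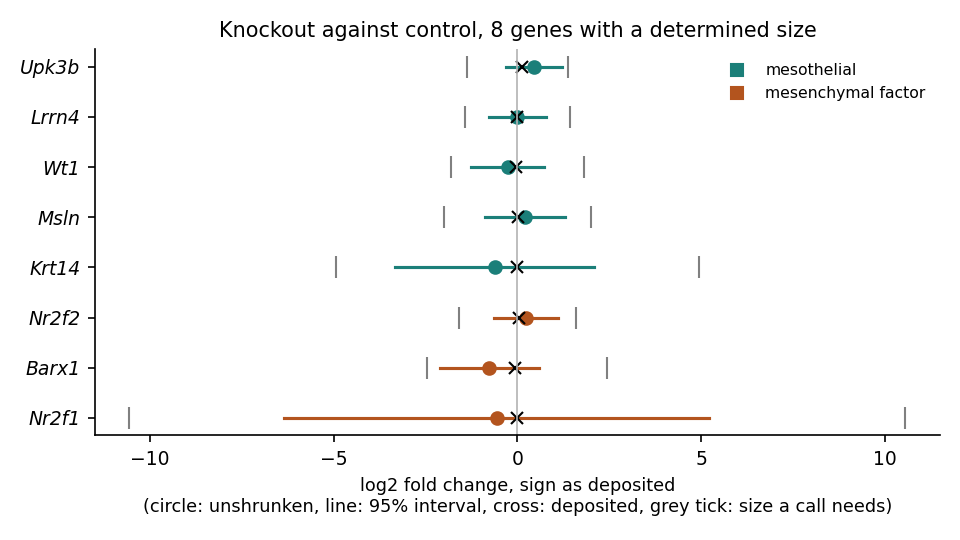
Unshrunken log2 fold changes (circles) with 95% intervals (lines) of the 8 members with a determined size, coloured by role, beside the authors' deposited values (crosses) and the size that a call would need (grey ticks). Every interval includes 0, and the circles run from -0.76 for Barx1 to 0.45 for Upk3b.

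How large a difference could have been called follows from the SE. The largest p among the 90 called genes was 0.000347, which corresponds to a size of 3.58 times the SE. By this measure a call would have needed a 2.60-fold difference for Upk3b, 2.69-fold for Lrrn4, 3.00-fold for Nr2f2, 3.51-fold for Wt1 and 4.00-fold for Msln. For Barx1 it would have needed 5.46-fold and for Krt14 30.6-fold. These limits rest on the prior scale assumed. With a scale 1.5 times larger, which returned the deposited p of only 12.8% of genes and of 1 of these 8 members, they would be 1.88-fold for Nr2f2, 1.91-fold for Wt1, 1.92-fold for Msln, 2.11-fold for Barx1 and 2.05-fold for Krt14. The SEs of the abundant members were like those of other genes at their level: for Wt1 the SE was 0.51 and the median over 689 genes within a factor of 1.2 of its mean count was 0.50, and for Lrrn4 the values were 0.40 and 0.40. The SE of Barx1 was 0.68, beside a median of 0.80 for such genes. Of the genes that near to Lrrn4 in mean count, 6 were called (1.94%), and near Barx1 2 were called (0.150%).

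**Figure D3:**
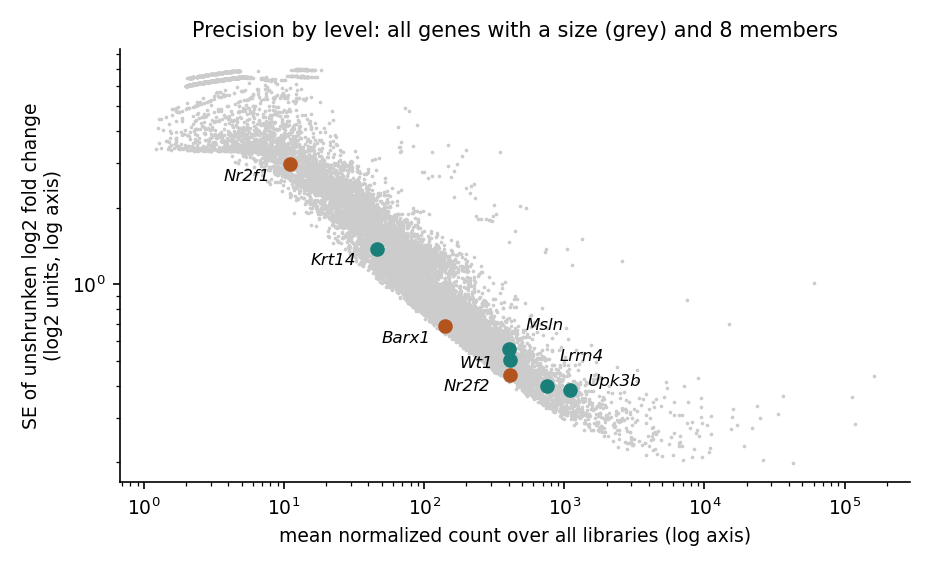
SE of the unshrunken log2 fold change (y, log2 units, log axis) against mean normalized count (x, log axis) for all genes with a determined size (grey) and 8 members (coloured by role). The SE falls with the count, from 2.95 for Nr2f1 to 0.39 for Upk3b, and the members lie within the band of the other genes.

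In the list of other mesothelial markers, no gene with an adjusted p was called. Of its 13 genes, the authors' deposited table held 10, and 9 had an adjusted p, of which 0 were called. Over all genes with an adjusted p, 0.743% were called, so 0 calls in lists this short, here and below, says little. At a nominal p below 0.05 by DESeq2, 2 of 10 were higher and 0 lower. Over all 14386 genes with a p, 388 were higher and 388 lower. The signs of the 10 markers were even, 5 below 0 and 5 above. The median unshrunken value of the 8 with a size was -0.06. Podxl, a sialomucin that endothelium and podocytes also make, was at 0.75 ± 0.33 (SE; adjusted p = 0.633 in the authors' DESeq2 test). Bnc1, a zinc finger factor of mesothelium, had a positive sign (DESeq2 adjusted p = 0.639, from the authors' deposited table) and fell just outside the tolerance for a size. Rspo1, a secreted enhancer of Wnt signalling, was at -0.70 ± 0.55 (SE; adjusted p = 1.00 in the authors' DESeq2 test). Mslnl, the mesothelin-like gene beside Msln, had a mean count of 1.76 and no adjusted p.

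The wider set of visceral mesenchyme factors was not called either. Of 18 listed, 17 were in the table and 15 had an adjusted p by the authors' DESeq2. Of these, 0 were called, against 0.743% of all genes with an adjusted p. At a nominal p below 0.05 by DESeq2, 1 of 16 with a p was lower and 1 higher. Over all genes with a p, 5.39% were under 0.05 in either direction. Their median unshrunken value was 0.27 over 14 factors, with 5 below 0 and 12 above among the 17. Isl1, a LIM homeobox factor of dorsal pancreatic mesenchyme and of islet cells, had the smallest p (adjusted p = 0.371 in the authors' deposited table, negative sign), and its size could not be determined. Hand2 was at 1.01 ± 0.48 (SE; adjusted p = 0.719 in the authors' DESeq2 test) and Gata6, which the epithelium also makes, at 0.80 ± 0.49 (SE; adjusted p = 0.931). Foxf1, a hedgehog-responsive factor of gut mesenchyme, had a mean count of 6.99 and no adjusted p. Tlx1, the homeobox factor required for the spleen, was listed with a mean count of 23.5 but no p.

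Signals and receptors of the mesenchyme held no call. Of 15 listed, 14 were in the table and 13 had an adjusted p in the authors' DESeq2 test. Of these, 0 were called, against 0.743% of all genes with an adjusted p. At a nominal p below 0.05 by DESeq2, 1 of 13 with a p was higher, against 5.39% of all genes with a p in either direction. Pdgfra, the receptor of fibroblasts, was at 0.82 ± 0.34 (SE; adjusted p = 0.498 in the authors' DESeq2 test) and Pdgfrb, that of pericytes, at 1.26 ± 0.65 (SE; adjusted p = 0.802). Fgf10, the mesenchymal growth factor for pancreatic progenitors, had a mean count of 103.6 and no p in the authors' deposited table. Of 11 close paralogs of the members, 7 were in the table and 4 had an adjusted p, with 0 called. All 7 had a p, and 1 was lower at a nominal p below 0.05 by DESeq2. This was Nr2f6, the third COUP-TF family gene, at -1.46 ± 0.66 (SE; adjusted p = 0.649 in the authors' DESeq2 test). Msc, the closest relative of Tcf21, had a mean count of 7.77 and no adjusted p.

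By median, the members lay between 2 groups of genes of opposite sign. So did the other mesothelial markers (-0.06), the other visceral mesenchyme factors (0.27), the venous and lymphatic endothelium genes (0.04) and all genes (0.08). This place is therefore not particular to the members. All 12 general mesenchyme genes had a positive sign, with 0 called, 3 higher at a nominal p below 0.05 by DESeq2 and a median unshrunken value of 0.41. Over all 14386 genes with a p, 388 were higher at that level. Col3a1, collagen III, was at 0.63 ± 0.20 (SE; adjusted p = 0.146) and Vim, vimentin, at 0.65 ± 0.23 (SE; adjusted p = 0.281 in the authors' DESeq2 test). All 11 pan-epithelial genes in the table had a negative sign, with a median of -0.85, and Krt18 was the single call, at -1.23 ± 0.28 (SE; adjusted p = 0.00315 in the authors' DESeq2 test). Krt18 is also made by mesothelium but was not in the list of other mesothelial markers. Ap1m2, an epithelial sorting adaptor, was at -1.69 ± 0.80 (SE; adjusted p = 0.723). These groups were chosen with their values known. Relative to the weighted mean of general mesenchyme (0.47) all 8 members with a size were below 0, and relative to that of pan-epithelial genes (-0.70) 7 of the 8 were above 0, the exception being Barx1 at -0.06. Each shift subtracts the same constant from every member, so these counts follow from the choice of reference and test nothing about the members. The part that cell proportions have in this was not tested.

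**Figure D4:**
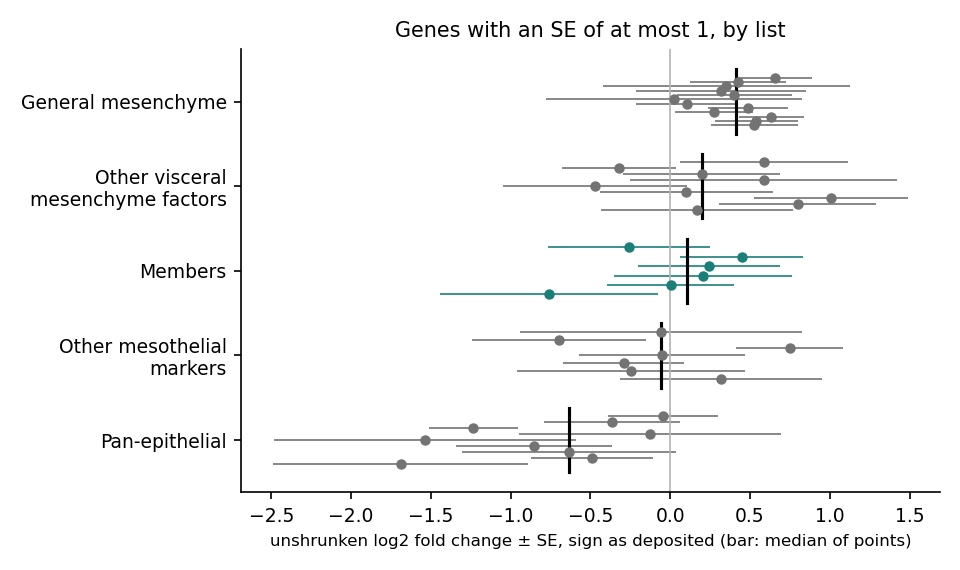
Unshrunken log2 fold changes ± SE (x axis, sign as deposited) of genes with an SE of at most 1, by list; black bars are the medians of the plotted points. The 6 members plotted have a median of 0.10, between 9 pan-epithelial genes at -0.63 and 12 general mesenchyme genes at 0.41; Krt14 and Nr2f1 are left out by the SE limit.

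Several members are also made by neighbouring tissues that a dissection could include, so the markers of these tissues stand beside them. For Wt1, the podocyte gene Nphs1, nephrin, had a mean count of 259.5 and an unshrunken value of -2.04 ± 0.84 (SE; adjusted p = 0.558 in the authors' DESeq2 test). In all, 5 of 8 kidney, gonad and adrenal genes were in the table, 3 of them with a mean count under 10. Only 2 had an adjusted p and 0 were called, against 0.743% of all genes with one. At a nominal p below 0.05 by DESeq2, 1 of 4 with a p was lower, which was Nphs1, against 5.39% of all genes in either direction. Cyp11a1, the first enzyme of steroid synthesis, had a mean count of 9.32. For Krt14, the list of basal and squamous epithelium had 3 of 7 genes in the table, with mean counts from 7.33 (Krt1) to 26.9 (Krt15). These 3 lay below the 46.1 of Krt14 in mean count. Krt5, the usual partner of Krt14, had no row. Of 15 pan-epithelial genes, 4 had no row either, so a missing row does not show that a gene was not expressed.

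For Barx1, 6 of 8 stomach epithelium genes were in the table, with a summed mean count of 505.2, and all 6 had a negative sign. Tff2, a trefoil peptide of gastric mucus cells, was at -0.53 ± 0.66 (SE; adjusted p = 1.00 in the authors' DESeq2 test), and the gastric mucin Muc5ac had a mean count of only 2.20. Tff1, Gkn1 and Gkn2, likewise products of gastric mucus cells, had mean counts of 154.1, 80.9 and 46.2 but no p. Of all genes, 2.01% had none. Their deposited log2 fold changes were -0.010, -0.010 and -0.023. Without values per library, it cannot be seen whether their counts came from few libraries. The 6 signs therefore do not show a shared decrease. The part of the stomach genes in the value of Barx1 was not tested. For Nkx2-5, 3 of 6 spleen and B cell genes were in the table, with mean counts up to 21.3, the B cell gene Cd79b having 5.24. For Nr2f2, all 7 venous and lymphatic endothelium genes were in the table and 0 passed the call or reached a nominal p below 0.05 by DESeq2. Lyve1, a lymphatic receptor for hyaluronan, was at 0.94 ± 0.57 (SE; adjusted p = 0.924) and Flt4, the receptor for lymphatic growth factors, at 1.59 ± 1.63 (SE; adjusted p = 1.00 in the authors' DESeq2 test). The median of this list was 0.04.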

How the data were processed

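The authors deposited 1 table of DESeq2 results, with no values per library; per the submitters' processing notes, Trimmomatic, Salmon and DESeq2 were used on GRCm38 (mm10), while versions, annotation, strand setting and formula are not stated there. For each gene it holds the mean normalized count (a signal the authors averaged over all libraries), a log2 fold change and its error as deposited (both log2) and a p-value and adjusted p-value (deposited by the authors). Depth per library is unknown; the mean counts sum to 3663175 over 14681 genes, 14386 of them with a p and 12108 with an adjusted p. The samples fall into 3 control and 3 knockout libraries by their titles, from separate embryos per the labels' protocols. No gene was tested again: calls are the authors', at an adjusted p under 0.05.

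Unshrunken sizes were computed with Python 3.11.15 and SciPy 1.17.1 by undoing a Cauchy prior of scale 0.31, the value that best returned the deposited p-values over all genes (z within 0.1 for 90.8% of genes with a p); a size is given only within that tolerance. This model, which takes the deposited error as a posterior SD, is an assumption, and was tested on simulated data for its arithmetic only. Sizes and SEs depend on the scale, for abundant genes too. Weighted means of lists use inverse variances of genes with an SE of at most 1. Lengths came from GENCODE M21 (92.1% of genes matched by symbol), coordinates likewise. The members and lists were chosen with earlier results of these data known. Named are all members, Dpy30, and from each list the called genes and the 2 with the smallest p (4 for mesothelial and mesenchymal factors). Tlx1, Fgf10, the Tff and Gkn genes without a p, Krt5 and Krt17 were added after their values were seen. A gene that the rule takes is not reported here.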

Additional observations from a re-analysis of the deposited data

How the results depend on the processing

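The count of called members was 0 with the authors' adjusted p under 0.05 and stayed 0 at 0.1, with Benjamini-Hochberg adjustment over all 14386 genes with a p, and with a mean count of at least 10. Sizes taken from the deposited p shifted by at most 0.08. With a prior scale 1.5 times larger, which matched only 12.8% of genes, the 8 members kept their signs but sizes moved by up to 0.63 and ran from -0.14 (Barx1) to 0.21 (Upk3b); the SE of Wt1 became 0.26 and that of Barx1 0.30. With one 1.5 times smaller, Upk3b became 1.49 and 7 members had no value. Relative to general mesenchyme, Lrrn4 was at -0.47, Nr2f2 at -0.23 and Upk3b at -0.023. Relative to pan-epithelial genes, Upk3b was at 1.15, Nr2f2 at 0.95, Msln at 0.91, Lrrn4 at 0.71, Wt1 at 0.45 and Barx1 at -0.056. These shifts follow from the added constant. Ordered by mean normalized count and not per kb, Nr2f2 moved from place 6 to 3 among the 9 members, Msln from 3 to 5, Barx1 from 5 to 6, Nr2f1 from 9 to 8 and Nkx2-5 from 8 to 9. The median of the members was -0.13, with deposited values 0.00, and over the 6 members with an SE of at most 1 it was 0.10. No paired analysis was possible because the table holds no values per library, and for the same reason leaving out a replicate, edgeR and another normalization were not run. Few reads limit Krt14, Nr2f1 and Nkx2-5.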

Other observations

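Some members share sequence with other genes. Of the 31-base windows of the longest coding GENCODE M21 transcript, 29.1% for Krt14 also occur in transcripts of 8 other genes. The keratin gene Krt16 led with 303 of 1668 windows. Whether shared sequence affected the values of Krt14 was not tested. The SE of Krt14 was 1.38, beside a median of 1.55 for genes within a factor of 1.2 of its mean count. Krt16 itself had no row. Krt17, another close paralog, had a mean count of 47.5, beside the 46.1 of Krt14. Its unshrunken log2 fold change was -0.41 ± 1.24 (SE). The share was 3.27% for Nr2f1, 1.98% for Nr2f2 and 0.602% for Nkx2-5, and 0 windows were shared for Wt1, Upk3b, Msln, Lrrn4 and Barx1.

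Transcripts on the opposite strand overlap both COUP-TF genes. A830082K12Rik overlaps Nr2f1 by 1741 bases and had a mean count of 23.1 in the authors' deposited table, above the 10.99 of Nr2f1. B130024G19Rik overlaps Nr2f2 by 1826 bases and had 12.3, far below the 410.9 of Nr2f2. The libraries were made with a stranded kit, but whether the counting used strand is not given in the sources used here. Of the 3177 windows of Nr2f1, 75 are shared with A830082K12Rik, and reads from these cannot be told apart without strand.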
